A study of Homo sapiens with 4 samples.

Results

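The 10 genes followed here are BCL2, BCL2L1, MCL1, BAX, BAK1, BID, BCL2L11, BBC3, PMAIP1 and BCL2A1 of the BCL2 family. They were taken by name, and every peak whose annotated nearest gene is among them was kept. This gave 18 of the 25514 peaks in the table, of which 14 lay in or next to a gene and 4 were distal intergenic. Of the 10 genes, 6 had at least 1 of the 14 peaks. Proteins of this family meet at the outer mitochondrial membrane. Pro-survival members (BCL2, BCL-XL from BCL2L1, MCL1, BCL2A1) hold the pore formers BAX and BAK1 in check, and BH3-only members (BID, BIM from BCL2L11, PUMA from BBC3, NOXA from PMAIP1) undo that restraint, so that cytochrome c leaks out and caspases are activated. Leukemic blasts often lean on BCL2 or MCL1 for survival.

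The mark measured was H4K20me1, histone H4 with a single methyl group on lysine 20, which SETD8 (KMT5A) deposits and which is known from the bodies of active genes and from mitotic chromatin. It was mapped by CUT&Tag, in which antibody-tethered Tn5 cuts chromatin next to the mark, in Kasumi-1, an acute myeloid leukemia line with the t(8;21) translocation. All 4 libraries came from cultures of this line in a CRISPR/Cas9 experiment, with 100000 cells each. The 2 control libraries are labelled sgNT and genotype WT, the other 2 sgSETD8 and SETD8 knockout. The labels give no time after editing, no guide and no statement on clones or separate cultures. The table holds 1 value per group and peak, and no header says which group comes first. Its name sets treated before control, which would put the knockout first. Here the columns are called first-listed and second-listed, and pairs of values are given in that order. The submitters' processing notes name DESeq for 1 library of each group. The sources used here do not otherwise give how many libraries stand behind each value or p-value. They name no outside standard for the scaling, and without one a loss of the mark of equal size everywhere would not show in the ratios.

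Over all peaks, 2791207 and 2682916 reads were recovered in these columns, with a median of 72 reads per peak in each. Of 9 genes that mark such myeloid blasts, 6 had a peak near or in the gene, among them RUNX1 and CD34, while MPO, CD33 and CEBPA had none. Lymphoid markers had a peak at 1 of 4 genes, liver markers at 1 of 3 and neuronal markers at 2 of 4 (SYT1 and RBFOX3). Of the 49 peaks of the myeloid list, 7 had a log2 ratio of 0.5 or more, where 15.0% of all peaks outside distal intergenic sequence did. Of the 26 peaks at the neuronal genes, 15 had a log2 ratio of −0.5 or less, where 7.03% of all such peaks did. By the unadjusted p of the authors' deposited table, 5 of the 49 were under 0.05, at CD34, POU4F1 and RUNX1, all above 0. Under the same limit were 5 of the 26, all below 0, and 5.06% of all peaks. These 26 belong to SYT1 and RBFOX3 only. Peaks of 1 gene are not separate observations, in this list or the myeloid one. The mark is not a readout of expression, so these lists describe only where it lay, and their part in the results below was not tested. In bulk chromatin, fewer cells with the mark and less mark per cell cannot be told apart.

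No BCL2 family peak was called different between the groups. By the adjusted p of the authors' deposited table (DESeq, per the submitters' processing notes), 0 of 18 family peaks and 0% of all peaks were under 0.05. By its unadjusted p, 0 of 18 were under 0.05, against 5.06% of all peaks. The smallest unadjusted p among the 18 was 0.051 in the authors' deposited table, at an intronic peak of BCL2 (adjusted p 0.966). As no peak of the table was called by the adjusted p, that count does not set the family apart. The same notes name DESeq for 1 library of each group, so these p-values may hold no spread between libraries. No value per library is in the table, so that spread could not be set beside any difference below. Intervals are exact 95% intervals from the recovered reads and cover counting error only.

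The log2 ratio of the first-listed to the second-listed group was above 0 at 10 of the 14 gene peaks, where 60.9% of all peaks outside distal intergenic sequence were above 0. After scaling both columns to equal reads in peaks, which subtracts 0.11 from every ratio, 9 of 14 family peaks and 47.9% of all were above 0. The family median was 0.28, with a range of −0.44 to 0.82, and the median of all such peaks was 0.09. A ratio of 0.5 or more was seen at 2 of 14 peaks, 1 in BCL2 and 1 in BBC3, against 15.0% of all, and a ratio of −0.5 or less at 0 of 14, against 7.03%. The family's shares of larger ratios were thus near those of all peaks. With 1 value per gene the family median was 0.09, and 3 of 6 genes (BCL2, BID, BBC3) were above 0. Of all 9038 genes with a peak outside distal intergenic sequence, 61.2% were above 0 by the same measure, with a median of 0.08. The counting interval lay clear of 0 at 8 of 14 peaks, compared with 27.7% of all peaks. If both ends of each fragment had been counted, so that reads are halved, it was clear of 0 at 2 of 14 peaks (BBC3 and 1 of BID), against 14.2% of all. Counting intervals narrow with depth, and the family peaks had a median signal percentile of 78.9 among all peaks. Neither share is therefore a like comparison.

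**Figure D1:**
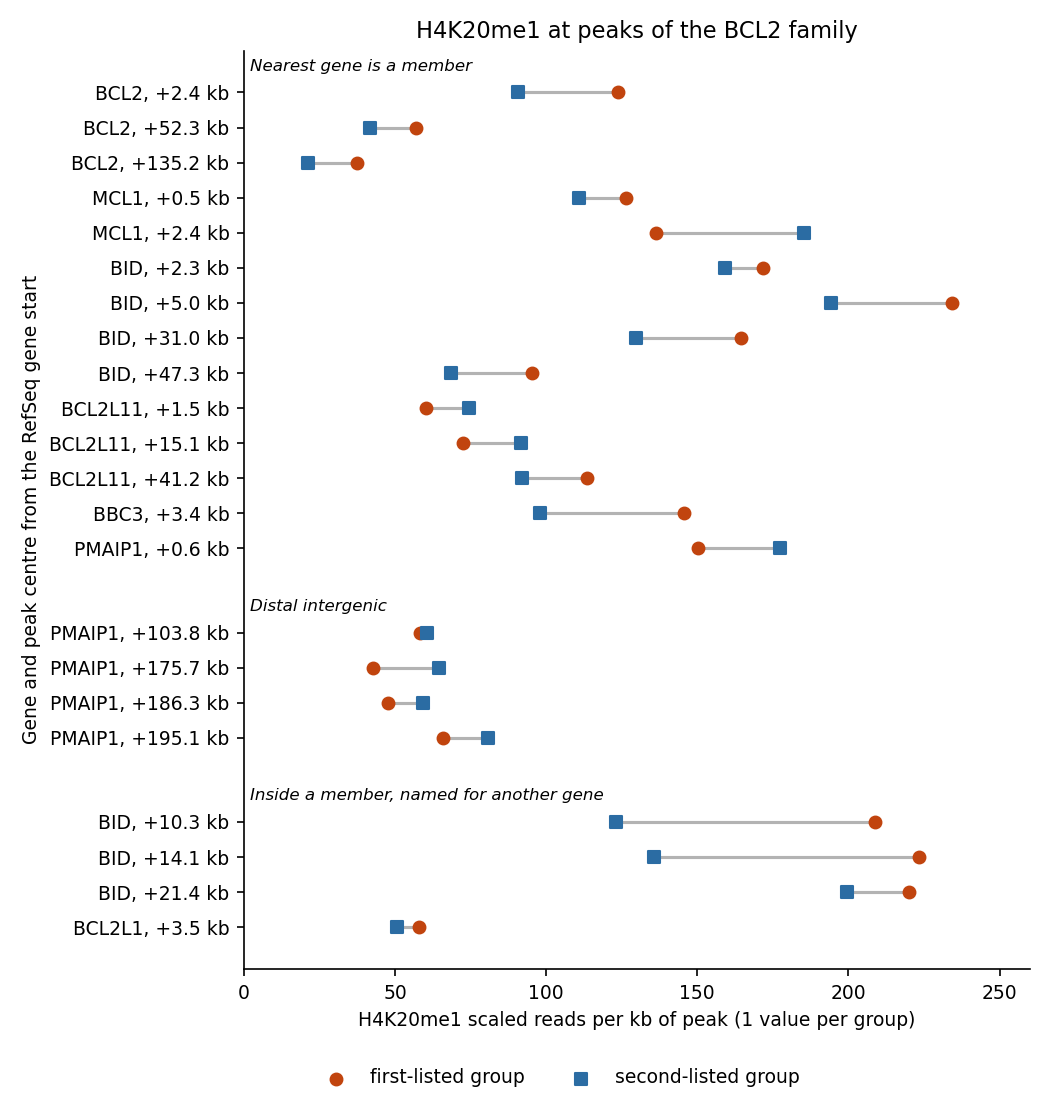
H4K20me1 level, in scaled reads per kb of peak, in the first-listed (circle) and second-listed (square) group at the 14 gene peaks, the 4 distal intergenic peaks and 4 peaks inside a member that carry another gene's name. The highest levels are in BID, at up to 234 scaled reads per kb, and the lowest in the BCL2 intron, at 37.4 and 21.2.

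BCL2 encodes the pro-survival protein after which the family is named. Its span on chromosome 18 (63123346 to 63320090, hg38, minus strand) is 197 kb long and held 3 peaks, all higher in the first-listed group. The peak nearest the start (63317093 to 63318305, annotated as promoter) held 150 and 114 reads. Its log2 ratio was 0.45 (interval 0.09 to 0.82). In intron 1 the peak at 63267180 to 63268498 held 75 and 57 reads, again 0.45 (−0.06 to 0.98). The peak deeper in intron 1, at 63184096 to 63185597, held 56 and 33 reads and had the highest ratio of the family, 0.82 (0.17 to 1.49). It was also the weakest of the 14 peaks, at 37.4 and 21.2 scaled reads per kb, and only 22.5% of all peaks had less signal. Of all peaks 3.30% had a higher log2 ratio. Summed over the gene, 281 and 204 reads gave 0.52 (0.25 to 0.79). Other peaks within 5 Mb, 126 in number, had a median of 0.02. The promoter peak of KDSR, 45837 bp upstream of BCL2, stood at 0.48 (98 and 73 reads, 0.03 to 0.94).

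MCL1, a short-lived pro-survival protein, had 2 peaks on chromosome 1 that differed in sign. The peak over the start (150578575 to 150579729) held 146 and 133 reads, a log2 ratio of 0.19 (−0.16 to 0.54). Within the gene, 2052 to 2705 bp from the start (150576905 to 150577558), 89 and 126 reads gave −0.44 (−0.85 to −0.04), the lowest ratio among the 14. Their counting intervals overlapped. That inner peak was the denser of the pair in both groups, with 136 and 185 scaled reads per kb against 126 and 111. Both peaks together had a ratio of −0.08 (−0.34 to 0.18). Without the deeper peak at the start the value for the gene was −0.44.

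The other pro-survival genes were the nearest gene of no listed peak. BCL2L1, on chromosome 20 (31664452 to 31723963), held 1 peak in its span (31719600 to 31721324), which the annotation gives to the promoter of ABALON, a noncoding gene inside BCL2L1. That peak had 100 and 91 reads and a log2 ratio of 0.19 (−0.23 to 0.62). The next peak, 15282 bp upstream at the promoter of TPX2, a spindle assembly factor, held 91 and 156 reads, with a ratio of −0.72 (−1.11 to −0.34). Its unadjusted p was 0.0701 in the authors' deposited table. BCL2A1 on chromosome 15 had no peak, and the nearest one lay 36842 bp away at ST20-MTHFS.

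The pore formers BAX and BAK1 had no peak in the gene. The nearest peak to BAX (chromosome 19, 48954875 to 48961798) lay 3478 bp beyond its 3′ end at the promoter of FTL, the ferritin light chain gene, and held 107 and 121 reads (−0.12, −0.51 to 0.27). A further FTL peak, 6222 bp from BAX, held 92 and 71 reads (0.43, −0.03 to 0.90). For BAK1 (chromosome 6, 33572552 to 33580276) the nearest peak was 9637 bp away at LINC00336, with 70 and 69 reads. A gene without a listed peak may still carry the mark below the threshold of the peak caller. The genes without a peak were 6.92 to 10.3 kb long, and PMAIP1 and MCL1, which had peaks, were shorter still, at 4.31 and 5.05 kb.

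**Figure D2:**
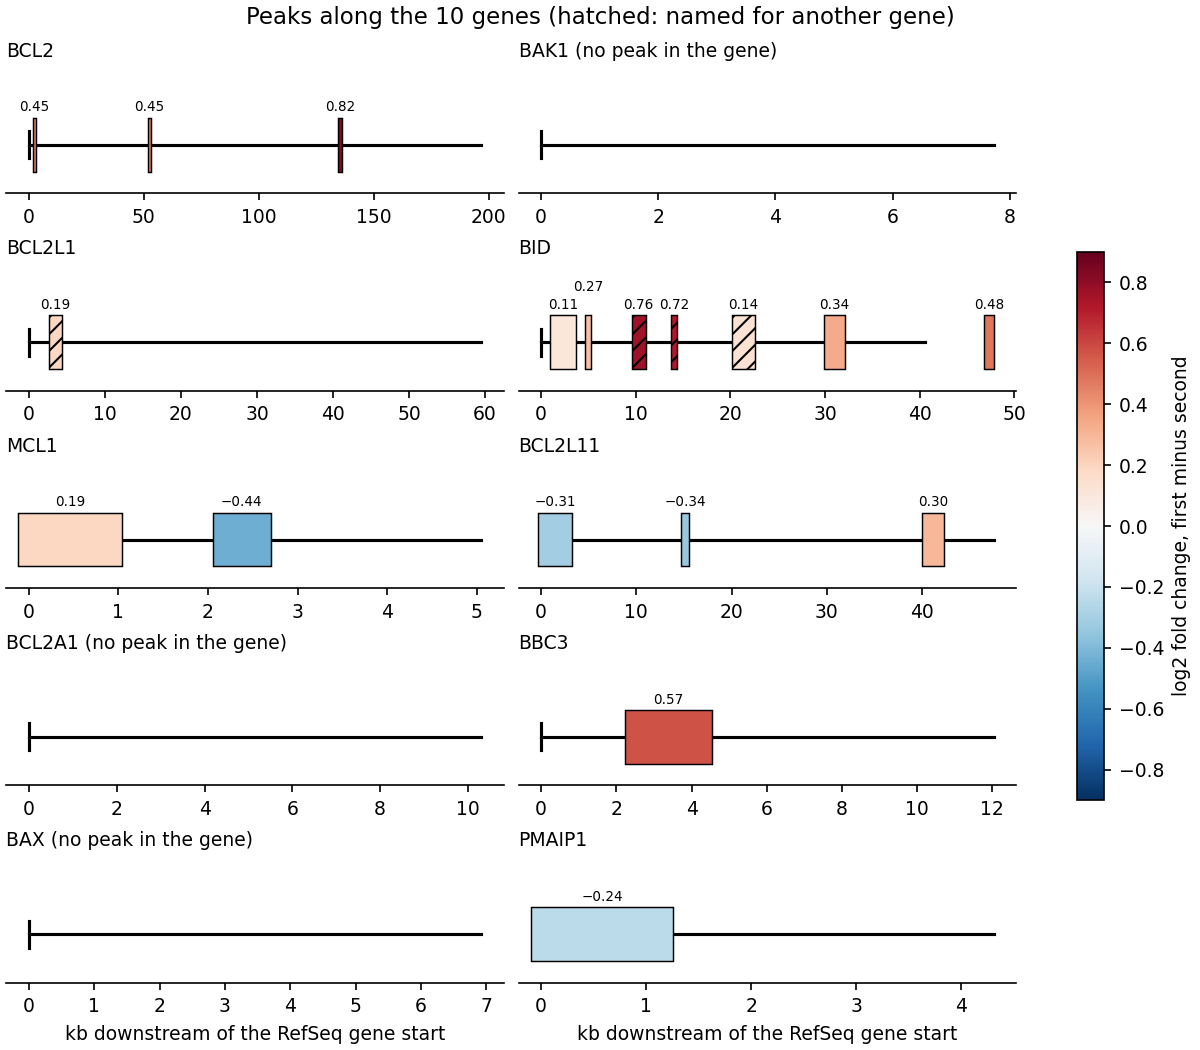
Position of each peak along the 10 genes, in kb from the RefSeq gene start in the direction of the gene, each gene on its own scale, with the log2 ratio above each peak and as colour. All peaks in BCL2 and BID are above 0 (that at the BID start is −0.0041 with equal reads in peaks), those of MCL1 and BCL2L11 differ in sign, and BAX, BAK1 and BCL2A1 are empty.

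BID links death receptor signalling to the mitochondrion once caspase-8 has cleaved it, and it held the most reads in peaks of the 10 genes. Its span on chromosome 22 (17734138 to 17774665, minus strand) held 6 peaks that together covered 10126 bp, or 25% of the gene. Only 7.13% of protein-coding genes with any peak in their span held 6 or more. Just 3 of these 6 are listed under BID itself. The other 3 are listed under MIR3198-1, a microRNA gene inside intron 1 of BID, because its start is nearer. Conversely, the fourth peak listed under BID (17726851 to 17727846) lies 46819 to 47814 bp from the start of BID and so past its 3′ end, in the 3′ UTR of BCL2L13, a further BCL2 protein. It held 95 and 71 reads, a ratio of 0.48 (0.02 to 0.94).

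Each of the 6 peaks in BID had a log2 ratio above 0, from 0.11 to 0.76. After scaling both columns to equal reads in peaks, that nearest the start stood at −0.0041 and the others stayed above 0. The peak nearest the start (17771031 to 17773678) was the deepest of the 14, with 455 and 439 reads and a ratio of 0.11 (−0.08 to 0.30). An intron 1 peak at 17769355 to 17770008 held 153 and 132 reads (0.27, −0.08 to 0.62) and 234 and 194 scaled reads per kb, the highest first-listed level here. At the 5′ end of BID both intervals thus reached 0. Over the start of MIR3198-1 (17763615 to 17765114), 9551 to 11050 bp into BID, 313 and 192 reads gave 0.76 (0.50 to 1.03). The unadjusted p of that peak was 0.0372 and its adjusted p 0.963 in the authors' deposited table. The next peak inward (17760261 to 17760918) held 147 and 93 reads, a ratio of 0.72 (0.33 to 1.11), with an unadjusted p of 0.0718 in the authors' deposited table. Their levels were 209 against 123 and 223 against 136 scaled reads per kb, the widest gaps in BID. Further in, the peak at 17752033 to 17754510 held 545 and 514 reads, more than any other described here, and a ratio of 0.14 (−0.04 to 0.32). The last peak inside BID (17742602 to 17744789), near an internal transcript start, held 360 and 295 reads (0.34, 0.12 to 0.57).

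Summed over the 6 peaks, 1973 and 1665 reads gave BID a log2 ratio of 0.30 (0.21 to 0.40). With only the 4 peaks listed under its name the ratio was 0.24 (0.11 to 0.37). The 174 other peaks within 5 Mb had a median of 0.06. Outside the gene, the upstream peaks at LINC00528 (5857 bp away) and MICAL3 (55275 bp away) both stood at 0.11, and the peak past the 3′ end, in BCL2L13, at 0.48.

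**Figure D3:**
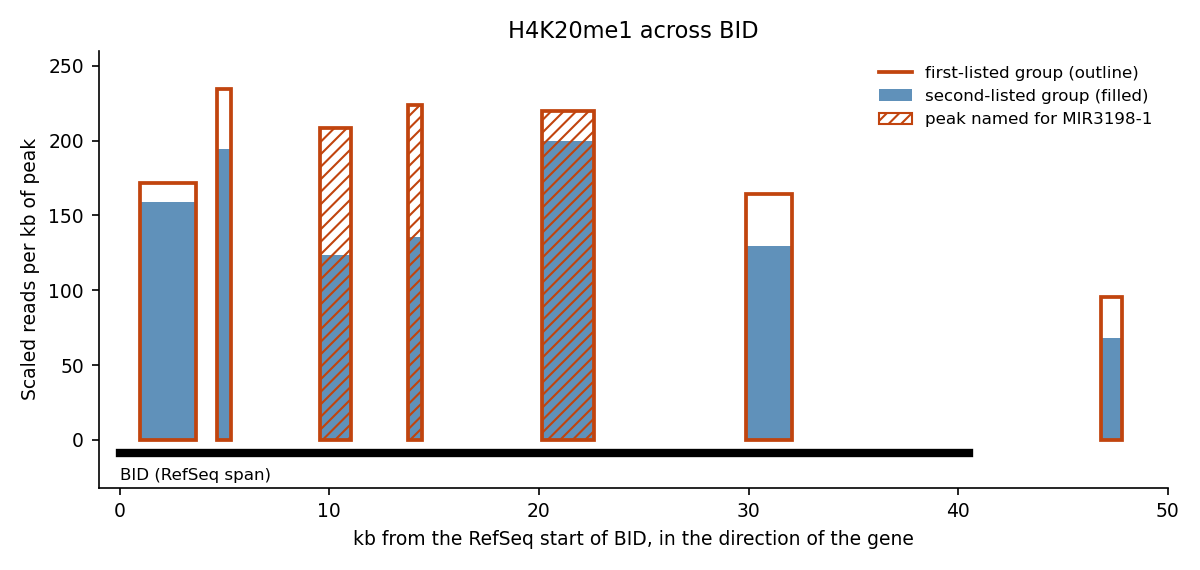
Scaled reads per kb of peak across BID, in kb from its RefSeq start, for the first-listed group (outline) and the second-listed group (filled), with peaks listed under MIR3198-1 hatched. The outline exceeds the filled bar most over the start of MIR3198-1 and at the next peak inward (209 against 123 and 223 against 136), and the peak past the end of the gene lies in BCL2L13.

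BCL2L11 encodes BIM, which binds all pro-survival members. On chromosome 2 (111120914 to 111168445) it had 3 peaks. The peak over its start (111120554 to 111124187) was 3634 bp wide and held 218 and 282 reads, a log2 ratio of −0.31 (−0.58 to −0.05). An intron 3 peak (111135612 to 111136441) held 60 and 79 reads, or −0.34 (−0.85 to 0.16). In the 3′ UTR (111160911 to 111163264) the order was reversed, with 267 and 226 reads and a ratio of 0.30 (0.04 to 0.56). The first-listed group was thus lower at the start peak and higher at the 3′ UTR peak of this gene. The counting intervals of those peaks did not overlap, although with halved reads they did (−0.69 to 0.06 and −0.07 to 0.68). Their unadjusted p-values were 0.395 and 0.402 in the authors' deposited table. Summed, 545 and 587 reads gave −0.05 (−0.22 to 0.12), and 0.16 without the deepest peak, that over the start. The nearest other peak lay 242597 bp away at MIR4435-2HG, with a log2 fold change of 3.06 in the authors' deposited table. Its reads and counting interval are not given here. Like every other peak, it was not under 0.05 by the adjusted p of that table.

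BBC3 encodes PUMA, which binds all pro-survival members, and PMAIP1 encodes NOXA, which binds chiefly MCL1 and BCL2A1. Their peaks pointed in opposite directions. The BBC3 peak (chromosome 19, 47228326 to 47230630) lay 2230 to 4534 bp inside the RefSeq span and was annotated as promoter, by a shorter transcript. It held 335 and 235 reads, 146 against 98 scaled reads per kb, and a ratio of 0.57 (0.32 to 0.82). Of all peaks 9.98% had a higher log2 ratio, and its unadjusted p was 0.11 in the authors' deposited table. The peak over the start of PMAIP1 (chromosome 18, 59899899 to 59901254) held 204 and 250 reads, 150 against 177 scaled reads per kb, and a ratio of −0.24 (−0.51 to 0.04). The interval of PMAIP1 reached 0, while that of BBC3 stayed above it also with halved reads (0.22 to 0.92).

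All 4 distal intergenic peaks of the family were assigned to PMAIP1, 103320 to 195416 bp downstream of its start, and all were lower in the first-listed group. Among all distal intergenic peaks, 50.5% were below 0. The peak at 60075108 to 60076271 held 50 and 78 reads (−0.58, −1.13 to −0.05). Those at 60085586 to 60086999 (67 and 87 reads, −0.32) and 60094759 to 60095412 (43 and 55 reads, −0.30) had intervals that spanned 0, as did the peak at 60003316 to 60004350 (60 and 65 reads, −0.06). The 3 farthest lie next to each other and are not separate observations. Other peaks within 5 Mb of PMAIP1 had a median of 0.15. With these peaks added, the ratio of PMAIP1 moved from −0.24 to −0.28. Nearest-gene assignment over such distances does not tie a peak to PMAIP1.

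**Figure D4:**
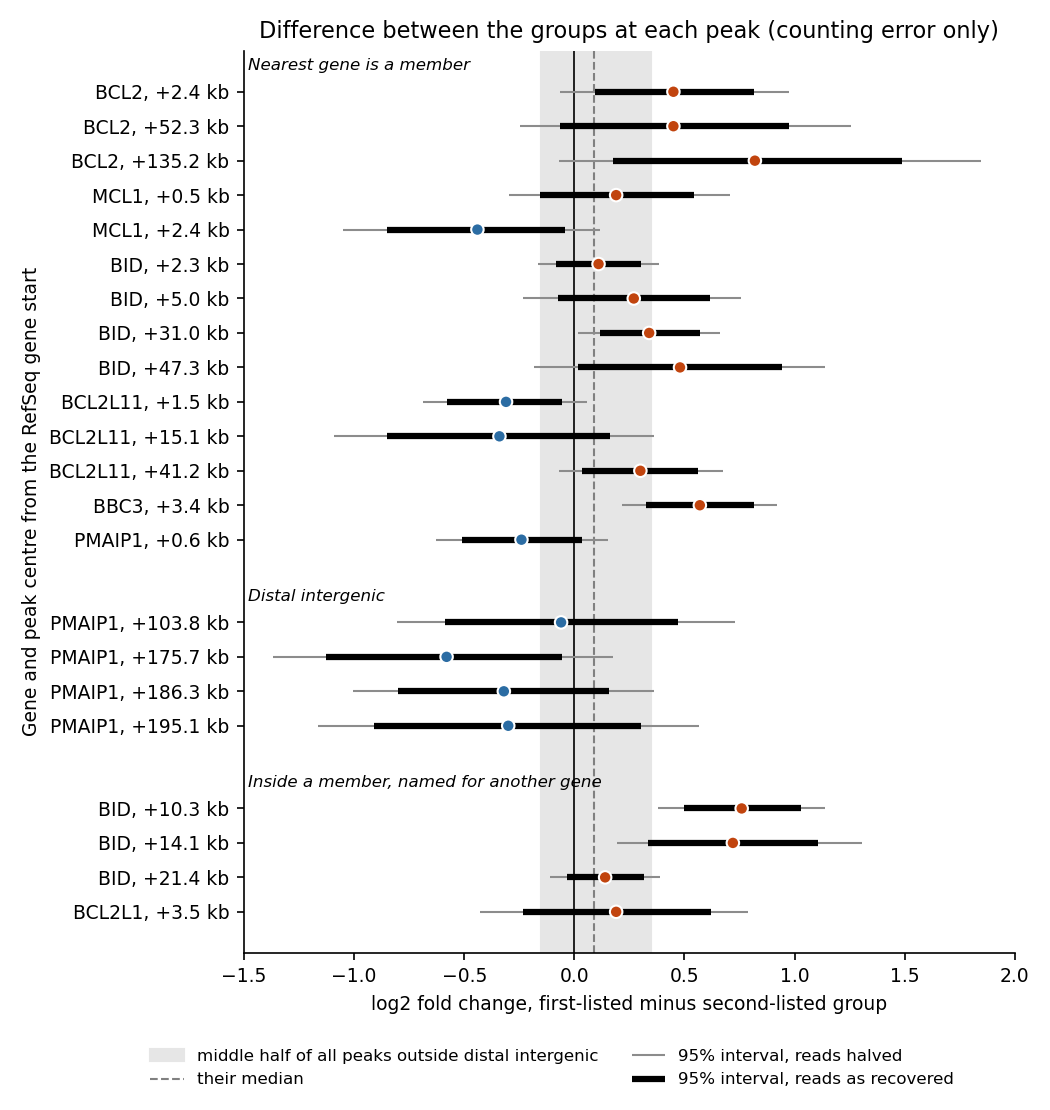
Log2 ratio of the first-listed to the second-listed group at each peak, with exact 95% intervals from the recovered reads (thick) and from halved reads (thin), over the quartile range (−0.15 to 0.35, shaded) and median (0.09, dashed) of all peaks outside distal intergenic sequence. Right of the shaded range lie BCL2 (0.45 to 0.82), BBC3 (0.57) and peaks of BID (0.48, 0.72 and 0.76), and left of it MCL1 (−0.44), BCL2L11 (−0.31 and −0.34), PMAIP1 (−0.24) and the 3 farthest intergenic peaks.

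Of the 10 genes, 6 were the nearest gene of a peak outside distal intergenic sequence, beside 38.8% of 20056 protein-coding genes. Of the 14 peaks, 11 were at or above the median signal of all peaks and 6 were in the top decile, and 11 exceeded the median density of 70.3 scaled reads per kb. Per kb of gene, PMAIP1 carried 51.7, MCL1 48.0 and BID 44.2 mean scaled reads in peaks, BBC3 23.3 and BCL2L11 11.7. BCL2L1 and BCL2 carried 1.57 and 1.21. The median of the 8234 protein-coding genes with a peak in the span was 3.77, so the first 5 lay above it and the last pair below. This ranking weighs peaks only, and short genes with a promoter peak come out high in it.

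The start sites were compared with these positions, since peaks covered only some of them. RefSeq windows of 300 bases, from 250 before to 50 after a start (GRCh38.p14), were at hand for 9 of the 10 genes, not for MCL1. Among these 9 genes, a peak overlapped the window of BCL2L11 and PMAIP1 only. MCL1 was not assessed this way, but 1 of its peaks ran from −119 to 1035 bp of its RefSeq start. Over 35116 windows of all genes, 15.6% overlapped a peak, and this share was 3.51% with 0 to 9 CpG dinucleotides, 17.4% with 10 to 19, 30.1% with 20 to 29, 28.9% with 30 to 39 and 19% with 40 or more. The windows below show the start of the BIM and NOXA genes, which lay under a peak, then BAX and BCL2A1, which had none, read 5′ to 3′ along the gene with each CpG in capitals.

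BCL2L11, chr2:111120664-111120963, plus strand: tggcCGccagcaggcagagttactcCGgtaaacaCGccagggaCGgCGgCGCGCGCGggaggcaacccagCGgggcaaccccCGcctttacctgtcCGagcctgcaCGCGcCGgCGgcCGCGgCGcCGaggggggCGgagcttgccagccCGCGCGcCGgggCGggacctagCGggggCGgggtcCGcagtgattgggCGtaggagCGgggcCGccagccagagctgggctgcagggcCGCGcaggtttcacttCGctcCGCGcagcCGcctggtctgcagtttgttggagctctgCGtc

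PMAIP1, chr18:59899746-59900045, plus strand: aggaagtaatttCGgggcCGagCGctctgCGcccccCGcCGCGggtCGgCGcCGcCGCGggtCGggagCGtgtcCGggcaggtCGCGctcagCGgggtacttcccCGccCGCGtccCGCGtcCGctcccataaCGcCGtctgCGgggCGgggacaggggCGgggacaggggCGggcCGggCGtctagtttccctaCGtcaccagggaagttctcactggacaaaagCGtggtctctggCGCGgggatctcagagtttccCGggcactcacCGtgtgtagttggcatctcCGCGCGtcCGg

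BAX, chr19:48954625-48954924, plus strand: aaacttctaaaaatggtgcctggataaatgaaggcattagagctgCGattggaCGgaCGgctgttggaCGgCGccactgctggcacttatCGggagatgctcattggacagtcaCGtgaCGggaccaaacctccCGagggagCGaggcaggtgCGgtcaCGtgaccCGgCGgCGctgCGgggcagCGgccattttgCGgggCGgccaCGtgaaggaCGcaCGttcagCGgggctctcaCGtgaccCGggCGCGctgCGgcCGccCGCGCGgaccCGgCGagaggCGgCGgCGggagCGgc

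BCL2A1, chr15:79971147-79971446, minus strand: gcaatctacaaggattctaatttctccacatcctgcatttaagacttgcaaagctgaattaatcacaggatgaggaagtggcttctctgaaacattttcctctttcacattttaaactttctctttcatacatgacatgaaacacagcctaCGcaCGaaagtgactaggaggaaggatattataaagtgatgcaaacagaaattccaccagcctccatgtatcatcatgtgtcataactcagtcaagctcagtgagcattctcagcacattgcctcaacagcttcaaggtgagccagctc

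The windows with a peak held 39 (BCL2L11) and 42 (PMAIP1) CpG. BAX had a like count, 38, and no peak. BCL2A1 had 2 and BAK1 7. The windows of BCL2L1 had 16 and 20 and those of BID 6 to 37, with no peak over them. BCL2 had 31 and no peak over the window, its nearest peak lying further inside the gene. In BBC3 the window had 5, and the peak lay further inside the gene. The sequence CACGTG, the core of an E-box, which reads the same on both strands, stood 4 times in the BAX window. Among the other members it stood 1 time in the BBC3 window and 1 time each in overlapping windows of BID. It occurred in 7.26% of all windows, and 5 windows of 35116 held 4 or more. The RUNX core TGTGGT, searched on both strands, was in the windows of BCL2 and of 1 BCL2L1 start, and in 13.1% of all. These are matches of letters in windows of fixed length.

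The rest of the pathway was described by 6 lists with 52 genes, of which 34 had a peak outside distal intergenic sequence, 89 peaks in all. Averaging the peaks of each gene, 28 of 34 genes were above 0 and 6 below (22 above 0 with equal reads in peaks), with a median of 0.20. Of all 9038 genes with such a peak, 61.2% were above 0 by the same mean (46.3% with equal reads in peaks), with a median of 0.08. By the adjusted p of the authors' deposited table, 0 of the 89 were under 0.05. By its unadjusted p, 4 peaks with a ratio above 0 and 1 with a ratio below 0 were under 0.05, near the 5.06% of all peaks. Ratios of 0.5 or more were found at 17 of the 89 peaks (19.1%, against 15.0% of all peaks) and of −0.5 or less at 3 (against 7.03%). For each list, 2 genes are given below by a single peak, which can differ from the mean of the gene. They were picked for the highest and lowest ratio of the list. Each gene entered by its peak furthest from 0 among those of at least median signal. The intervals do not allow for this choice.

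Of 13 other BCL2 proteins only BCL2L13, BNIP3 and BNIP3L had a peak. BNIP3L, a mitophagy receptor, gave 108 and 66 reads at its promoter (0.77, 0.31 to 1.23), while its other peak held 79 and 96 (−0.22), for a mean of 0.28. BCL2L13 held 107 and 107 (0.06, −0.34 to 0.46). In the death receptor arm, which acts through BID, 7 of 8 genes were above 0 (7 with equal reads in peaks, median 0.28). The receptor gene TNFRSF10A held 115 and 69 reads (0.79, 0.35 to 1.25) and the adaptor FADD 380 and 451 (−0.19, −0.39 to 0.01). All 5 measured genes of the outer membrane channel list were above 0 (4 with equal reads in peaks, median 0.33). MTCH2, the membrane receptor that recruits cleaved BID, held 121 and 64 reads (0.98, 0.53 to 1.44), with an unadjusted p of 0.018 in the authors' deposited table, while VDAC3, a voltage-dependent anion channel, held 149 and 139 (0.16, −0.19 to 0.50).

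The genes that act downstream of the mitochondrion were described next. The apoptosome and caspase list had 4 of 7 genes with a peak, all above 0 (1 with equal reads in peaks), and a median of 0.07. APAF1, the apoptosome scaffold, held 94 and 97 reads at its strongest peak (0.01, −0.41 to 0.44), and its 5 peaks ran from −0.63 (31 and 50 reads) to 0.45 (75 and 57 reads) with a mean of 0.04. CASP2 held 167 and 158 (0.14, −0.19 to 0.46). Inhibitors of apoptosis and their antagonists were below 0 at 4 of 6 genes (median over genes −0.09), whereas the median over their 13 peaks was 0.21. BIRC5, which encodes survivin, held 76 and 141 reads (−0.83, −1.26 to −0.42) and a peak of BIRC6 272 and 191 (0.57, 0.29 to 0.84, mean of 6 peaks 0.24). Regulators of BIM and MCL1 were above 0 at 7 of 8 genes (6 with equal reads in peaks, median 0.29), and the gene below 0 was FBXW7 (mean −0.22 over 2 peaks). A peak of GSK3B, a kinase that marks MCL1 for degradation, held 184 and 99 reads (0.95, 0.59 to 1.32). The mean of the 6 GSK3B peaks was 0.38. A peak of HUWE1, an MCL1 ubiquitin ligase, held 152 and 192 (−0.28, −0.60 to 0.03), and the mean of its 4 peaks was 0.02.

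**Figure D5:**
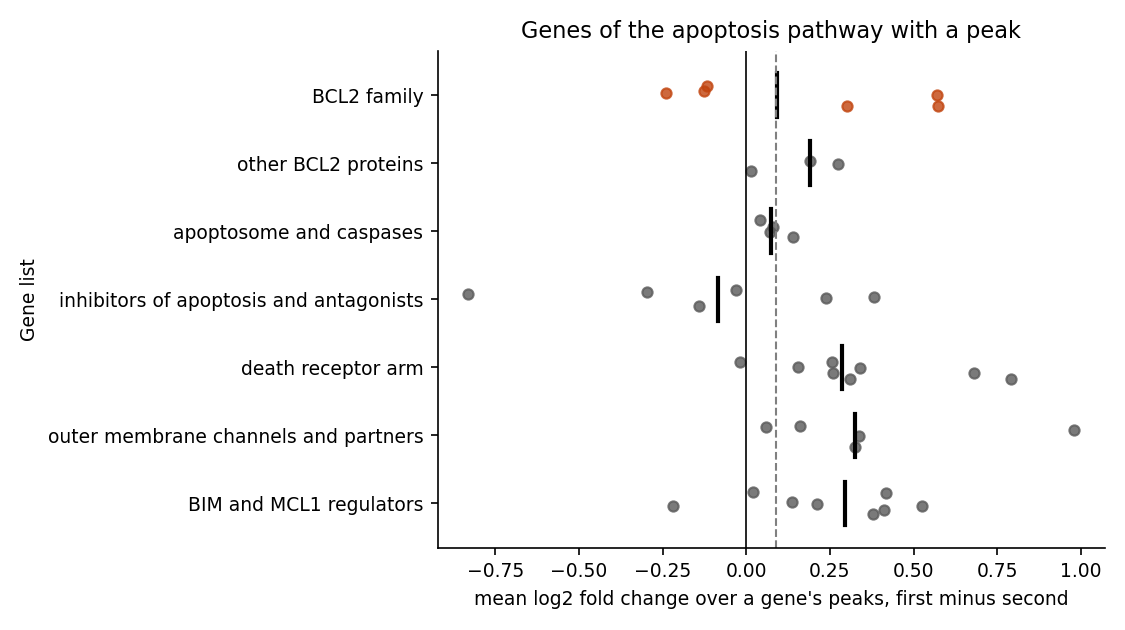
Mean log2 fold change over the peaks of each gene (points) and the median per list (bar) for the BCL2 family and 6 other lists of the apoptosis pathway, with the median of all peaks outside distal intergenic sequence dashed. The family spreads from −0.24 (PMAIP1) to 0.57 (BCL2 and BBC3), and MTCH2 (0.98) and BIRC5 (−0.83) lie at the ends.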

How the data were processed

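The data were 1 table of H4K20me1 CUT&Tag peaks from a series of 4 Kasumi-1 libraries. Its values and p-values may rest on fewer than these 4. The submitters' processing notes name build hg38, cutadapt and Bowtie2 for all 4 libraries and DESeq for 1 library of each group. Versions, peak caller and duplicate handling are, in the sources used here, not given. The authors deposited, for each peak and group, 1 log2 value of scaled reads, and for the pair a log2 fold change, a p-value and its adjusted form. Columns carry numbers only, so their meaning was read from the values: the fold is the first column less the second, within 0.01 in every peak.

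All low log2 values (1.5 to 5.5) equalled log2 of a whole number plus a constant (0 and −0.057) within 0.0051, which gave the reads per column, exact up to 144. Log2 ratios were computed from these reads and lay within 0.0045 of the deposited folds for the family. Intervals are exact Clopper-Pearson 95% intervals and cover counting error only. With 1 value per group no test was made here, and p-values are the authors'. Read recovery was tested on simulated whole reads made with the same constants and rounding. That could not test whether the deposited columns hold whole reads, or of how many libraries.

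Peaks were taken by annotated nearest gene, and gene spans and promoter windows came from RefSeq (GRCh38.p14). Outside the family, each gene was represented by its peak furthest from 0 among those of at least median signal, and the genes with the highest and lowest such peak of a list were named (others were chosen after their values were seen). Members, lists and alternatives were chosen with earlier results of these data known. A further pathway list is not reported here. Python 3.11.15, pandas 2.3.3 and scipy 1.17.1 were used.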

Additional observations from a re-analysis of the deposited data

How the results depend on the processing

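No paired analysis was possible because the table holds 1 value per group, and for the same reason no replicate could be left out. By the adjusted p of the authors' deposited table, 0 family peaks were called under 0.05 and under 0.1, by its unadjusted p under 0.05, and with the distal intergenic peaks. The family median of 0.28 ranged from 0.09 (1 value per gene) to 0.28 over 8 alternatives. Scaling to equal reads in peaks subtracts 0.11 from every ratio, which left it at 0.17 and put 9 of 14 peaks above 0, while the median of all peaks outside distal intergenic sequence became −0.024. The count of 2 peaks of 0.5 or more in size was 11 at 0.25 and 0 at 1, as other limits admit other numbers, and 3 with the distal intergenic peaks. Of the 6 genes with a listed peak, 3 (BCL2, BID, BBC3) were above 0 under each alternative but 1. Without the deepest peak only 4 genes had a value, and BCL2, BID and BCL2L11 were above 0. By gene span BCL2L1 (0.19) would be a further gene above 0. Many alternatives leave a gene's peaks as they are, so agreement there shows no stability. Without its deepest peak MCL1 gave −0.44 in place of −0.08 and BCL2L11 0.16 in place of −0.05. The alternatives by gene span, with halved reads and without the BCL2L13 peak were chosen after seeing the data. Peaks under 100 reads had intervals about 1 log2 unit wide, which limits what their ratios can show.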
